A study of Mus musculus with 9 samples.

Results

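The genes described here encode the enzyme families that modify, conjugate and clear foreign compounds: cytochromes P450 of families 1 to 4 (CYP), flavin monooxygenases (FMO), alcohol dehydrogenases (ADH), aldehyde dehydrogenases (ALDH), carboxylesterases (CES), glutathione S-transferases (GST), UDP-glucuronosyltransferases (UGT) and sulfotransferases (SULT). Members were chosen by gene symbol, with the symbols of the GENCODE M21 annotation of GRCm38 matched to the Ensembl identifiers in the count tables, and by at least 50 counts summed over the 9 libraries. Of 46517 genes in the tables, 220 had a fitting symbol, 24 of these were pseudogenes and were left out, 97 fell under the count minimum, and 99 were members. No count at all was found for 50 of the genes under the minimum. The minimum fell between Ces2f with 45 counts and Fmo2 with 57. The members were 33 CYP, 20 GST, 17 ALDH, 8 CES, 8 UGT, 6 SULT, 4 FMO and 3 ADH genes. The filter on low counts used for the tests kept 97 members, all but Cyp2j8 and Fmo2.

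The study cultured mouse intestinal stem cells in 3 matrices for 4 days: Matrigel, a basement membrane extract made from a mouse tumour, a non-degradable gel of polyethylene glycol (PEG), a synthetic polymer, and a degradable PEG gel. Poly(A) RNA was sequenced from 3 libraries per matrix. All 9 cultures received the same additions: R-spondin, noggin, EGF, the GSK3 inhibitor CHIR99021 and valproic acid, which inhibits histone deacetylases, so every comparison holds these agents constant. The sources used here do not give the strain, sex, age, gut segment or gel peptides, nor whether replicates came from separate cultures or animals. The p-values therefore measure the spread between these libraries, which may be technical.

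Foreign compounds are cleared in 2 chemical steps. Phase I enzymes (CYP, FMO, ADH, ALDH and CES) oxidise, reduce or hydrolyse a compound, and phase II enzymes (GST, UGT and SULT) attach glutathione, glucuronic acid or sulfate, which makes it easier to export. In the gut these enzymes are known mainly from absorptive enterocytes, where ligand sensors such as the pregnane X receptor (PXR, Nr1i2), the constitutive androstane receptor (CAR, Nr1i3) and the aryl hydrocarbon receptor (AhR) together with tissue factors such as HNF4 drive their genes.

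Libraries held 38016227 to 47211981 reads assigned to genes, and levels are given in counts per 1000000 assigned reads (CPM) on library sizes adjusted with TMM factors. Correlations of log2 CPM were 0.991 to 0.995 within a matrix and 0.969 to 0.992 between matrices. The 8 epithelial markers summed to 5238 to 5491 CPM in Matrigel. They summed to 5526 to 6599 CPM in the non-degradable gel and 6018 to 6793 CPM in the degradable gel, so every gel library lay above every Matrigel library. The 5 endothelial markers summed to at most 0.316 CPM in a library, the 6 gastric markers to 1.11, the 8 blood cell markers to 6.26 and the 8 mesenchymal markers to 9.43 CPM. Of these, 3 gastric, 3 mesenchymal, 2 blood cell and 1 endothelial marker were at 0 counts throughout. Stem cell markers summed to 3242 to 3440 CPM in Matrigel, 2519 to 2536 in the non-degradable gel and 2940 to 3118 in the degradable gel. Many members are also abundant in liver, and 7 hepatocyte markers summed to 2124 to 2736 CPM in Matrigel, 2019 to 2228 in the non-degradable gel and 1725 to 2076 in the degradable gel. Nearly all of that sum was Cps1 of the urea cycle, which intestinal epithelium also expresses, at 2727, 2120 and 2587 CPM in Matrigel, 2222, 2014 and 2031 in the non-degradable gel and 2072, 1720 and 1929 in the degradable gel. Alb, the albumin gene that defines hepatocytes, stayed at or under 0.484 CPM in each library, and Fga was at 0 counts throughout. Of the 5 hepatocyte markers tested (edgeR against Matrigel, as described below), 1 rose (Tat) and 3 fell (Alb, Ttr and Cps1) in the degradable gel, and 1 rose (Tat) and 1 fell (Alb) in the non-degradable gel. In the degradable gel that is 20% higher and 60% lower, against 7.42% and 4.79% of all 14870 tested genes. In the non-degradable gel it is 20% each way, against 9.71% higher and 7.13% lower of all tested genes. The calls of Ttr and Cps1 were lost without any 1 of Matrigel replicates 1 and 3 and of degradable PEG replicates 1, 2 and 3 (0.0606 to 0.109) for Ttr, and of Matrigel replicates 1 and 3 and of degradable PEG replicates 2 and 3 (0.0816 to 0.127) for Cps1, as adjusted p-values. In the non-degradable gel Alb was lost without any 1 of Matrigel replicate 3 and of non-degradable PEG replicates 1 and 2 (0.0523 to 0.0662) and Tat without any 1 of Matrigel replicate 1 and of non-degradable PEG replicate 3 (0.051 to 0.0701). The part of these markers in the results below was not tested.

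Promoter letters were read for the 85 members with an entry in the RefSeq promoter table (build GRCm38.p6), using the 250 bases before each annotated start. The 3 sequences below are shown because their letters include an HNF4 motif and because the genes were lower in the degradable gel than in Matrigel. Each line gives the 150 bases before the start, read 5′ to 3′ on the gene's own strand. Only the matched HNF4 letters are in capitals. Cyp2c65 lies at chr19:39060856-39061005 on the plus strand, and Cyp2c67 at chr19:39649043-39649192 and Cyp2c68 at chr19:39741102-39741251 on the minus strand.
Cyp2c65: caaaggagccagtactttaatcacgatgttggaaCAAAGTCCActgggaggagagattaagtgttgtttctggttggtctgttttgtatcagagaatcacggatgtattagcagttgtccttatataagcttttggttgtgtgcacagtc
Cyp2c67: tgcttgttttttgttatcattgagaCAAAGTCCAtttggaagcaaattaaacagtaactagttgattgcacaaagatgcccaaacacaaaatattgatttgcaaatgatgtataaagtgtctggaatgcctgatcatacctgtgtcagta
Cyp2c68: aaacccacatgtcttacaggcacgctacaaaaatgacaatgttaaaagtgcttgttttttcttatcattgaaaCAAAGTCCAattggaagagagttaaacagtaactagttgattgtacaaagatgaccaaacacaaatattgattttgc
The HNF4 letters CAAAGTCCA began 116 bases before the start in Cyp2c65, 125 bases before it in Cyp2c67 and 77 bases before it in Cyp2c68, which are neighbouring copies on chromosome 19.

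Searched on both strands, CAAAGTCCA was present before 4 of the 85 members (4.71%), these being the 3 Cyp2c genes and Cyp3a11, against 0.451% of 27025 genes. The AhR core GCGTG stood before 27.1% of members and 30.9% of genes, the NRF2 letters TGACNNNGC before 8.24% and 11.5%, and the CDX letters TTTATNG before 11.8% and 11.3%. An AhR core also lies in the printed letters of Cyp2c68, on the opposite strand at position -130 from the start, and is left in lower case there. A match describes letters and is no evidence of binding. Hnf4a itself was at 862, 695 and 771 CPM in Matrigel, 839, 765 and 819.7 in the non-degradable gel and 714, 675 and 710.4 in the degradable gel, and did not pass the test in any comparison (edgeR's quasi-likelihood test with Benjamini-Hochberg adjustment, lowest adjusted p = 0.276).

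Levels per kilobase of exon, averaged over the 9 libraries, ranged widely within each family. The highest was 231 CPM per kilobase for Aldh1b1, a mitochondrial acetaldehyde dehydrogenase known from intestinal stem cells, followed by 214 for Cyp2c55, a P450 that oxidises arachidonic acid. Cyp2c55 gave 41.3% of the summed CPM of all CYP members. The leading GST genes per kilobase were Gsta4, which conjugates the lipid peroxidation product hydroxynonenal, at 154 and Gsto1 of the omega class at 113. The leading members of the other families were Ugt2b34 at 92.8 and Ugt1a7c at 47.1, Ces2a at 79.5 and Ces2e at 35.5, Aldh18a1 of proline synthesis at 83.8, Cyp2j6 at 63.8, Adh5 at 30.6 and Adh1 at 5.91, Sult4a1 at 14.4 and Sult1d1 at 6.76, and Fmo4 at 5.399 and Fmo1 at 2.89. At the ends of the scale, 16 of the 99 members averaged at least 100 CPM and 18 averaged under 1 CPM.

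Many members are neighbouring copies: 69 of the 99 lay in 20 groups of one family less than 1 Mb apart. Counting is uncertain for some of them. The annotated Ugt1a genes share their last exons, and over 50% of 50-base stretches of the longest transcript were also found in another gene for 7 members, among them Gsta1 (89.7%), Ugt1a7c (69.3%), Ugt1a1 (58.2%) and Cyp2c67 (52.8%). The share was 43.3% for Cyp2c68, 42.2% for Ces2c and 41.7% for Ugt2b5, and it was under 10% for 75 members.

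The degradable gel stood apart from both other matrices. Against Matrigel, 32 of the 97 tested members fell in the degradable gel and 3 rose (edgeR's quasi-likelihood test, Benjamini-Hochberg adjusted p under 0.05, as for every call below). That is 33% lower and 3.09% higher, where 4.79% of all 14870 tested genes were lower and 7.42% higher. The median log2 difference over the members was -0.32, and over all tested genes -0.02. Against the same Matrigel libraries, 16 members rose and 9 fell in the non-degradable gel, or 16.5% and 9.28%, where 9.71% of all genes were higher and 7.13% lower. The median was 0.09 for the members and 0.00 for all genes. Set directly against each other, 25 members were higher in the non-degradable than in the degradable gel (25.8%, against 0.814% of all genes) and 0 were lower (0.464% of all genes). At an unadjusted p under 0.05, 57 were higher and 0 lower, and DESeq2 called 38 higher and 0 lower. Of all 14870 tested genes, 1267 were higher and 936 lower at that unadjusted p, and DESeq2 called 320 higher and 191 lower. The median log2 difference between the gels was 0.48 for the members and 0.00 for all genes. The summed level of 13 enterocyte markers was, in degradable libraries, 642 to 967 CPM. Matrigel libraries gave 885 to 1069 and non-degradable ones 1090 to 1149 CPM for that sum. Their part in these differences was not tested, and in RNA from whole cultures fewer cells of a type and less RNA per cell cannot be told apart.

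**Figure D1:**
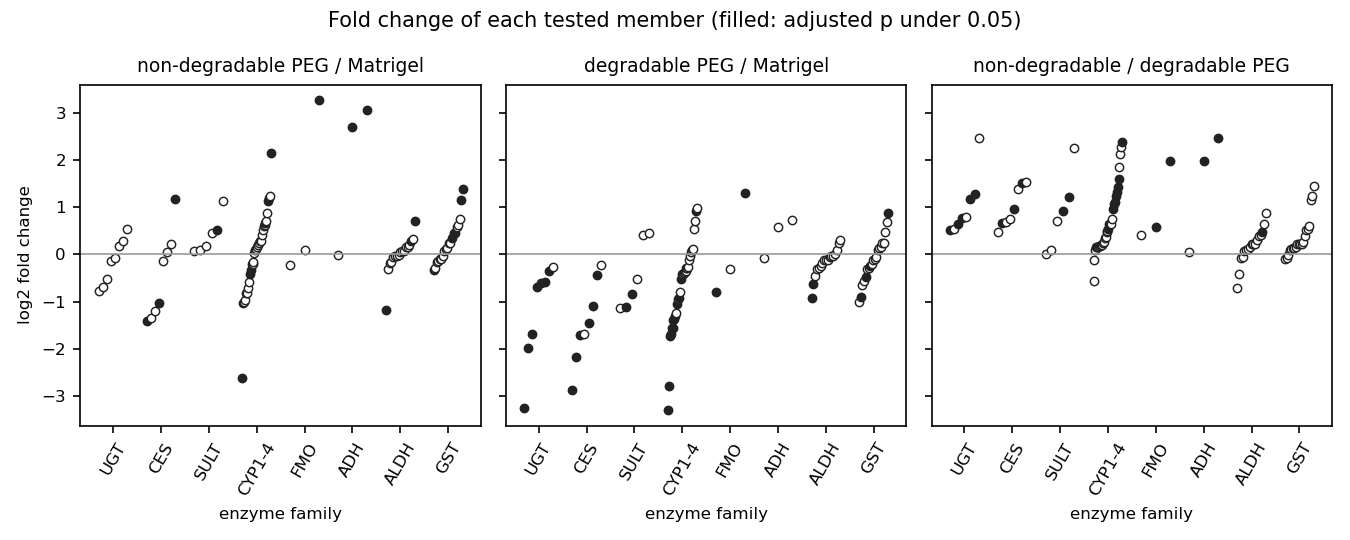
Log2 fold change (y axis) of each of the 97 tested members in the 3 comparisons, grouped by enzyme family (x axis) and ordered by value within a family; filled points passed an adjusted p of 0.05. UGT and CES points lie below 0 in the degradable gel against Matrigel, where 7 of 8 and 6 of 8 were called, and every filled point of the comparison between the gels lies above 0.

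The calls rested unevenly on single libraries, and every member that was called is named below. The 32 lower members of the degradable gel became 28 to 33 when any 1 of the 9 libraries was left out, and 28 of the 32 passed without Matrigel replicate 1. That library held the highest Matrigel value for 28 of the 32 (87.5%), against 62.6% of all 712 genes called lower. Without it the median log2 difference of the 32 went from -1.11 to -0.88. The 3 higher members became 0 without Matrigel replicate 3, 1 without degradable PEG replicate 3 and 7 without degradable PEG replicate 1. The 25 members that differed between the gels were less stable: without degradable PEG replicate 2 none passed, with adjusted p-values of 0.0596 to 0.205, the same direction in all 25 and a median log2 difference of 1.05 in place of 1.11. Without that library 19 genes in all passed, in place of 190. Without non-degradable PEG replicate 1, 4 of the 25 passed, without replicate 3, 10, without replicate 2, 15, without degradable PEG replicate 1, 10, and without replicate 3, 14. For the non-degradable gel against Matrigel, the 16 higher members became 8 without non-degradable PEG replicate 3, 9 without Matrigel replicate 2, 9 without Matrigel replicate 3 and 10 without non-degradable PEG replicate 1. The 9 lower members became 2 without non-degradable PEG replicate 1, 3 without replicate 3 of that gel, 5 without its replicate 2, 3 without Matrigel replicate 1 and 5 without Matrigel replicate 3. The replicate number was also fitted as a block, because same-numbered libraries of these matrices tended to vary together. The sources do not say what a number stands for. With the block, 25 members were higher and 15 lower in the non-degradable gel against Matrigel. Those gained were Aldh1a7 (adjusted p = 0.0433), Cyp2d22 (0.00882), Gsta3 (0.0117) and Gstp1 (0.0225), all higher, and others named with their families below. Without the block, the 72 tested members that did not pass in this comparison had log2 differences of -1.34 (Ces1f) to 1.24 (Cyp2d22). In the degradable gel against Matrigel the 62 that did not pass had -1.69 (Ces1g) to 0.98 (Cyp2d22).

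Summed over all 99 members, the level was 5891 ± 568 CPM in Matrigel, 6028 ± 202 in the non-degradable gel and 4632 ± 144 in the degradable gel (mean ± SD, n = 3). UGT genes together made 775 ± 76.4 CPM in Matrigel, 825 ± 58.2 in the non-degradable gel and 507 ± 61.7 in the degradable gel. CES genes made 467 ± 153, 479 ± 42.5 and 218 ± 8.50 CPM, and CYP genes 1124 ± 135, 1116 ± 22.0 and 856 ± 31.2 CPM. ALDH genes made 2184 ± 146, 2139 ± 74.6 and 1843 ± 78.9 CPM. In all 4 of these families the degradable libraries lay below every other library. GST sums, at 1040 ± 70.8, 1099 ± 28.6 and 931 ± 82.2 CPM, overlapped. For FMO, ADH and SULT genes every non-degradable library lay above every other library. FMO sums were 45.4 ± 4.04 CPM in Matrigel, 59.6 ± 7.62 in the non-degradable gel and 34.3 ± 3.81 in the degradable gel. ADH sums were 176 ± 4.05, 211 ± 15.8 and 171 ± 7.12 CPM in the same order, and SULT sums 79.9 ± 9.10, 98.6 ± 10.4 and 72.0 ± 6.76 CPM. No test was run on these sums, which are carried by a few abundant members.

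**Figure D2:**
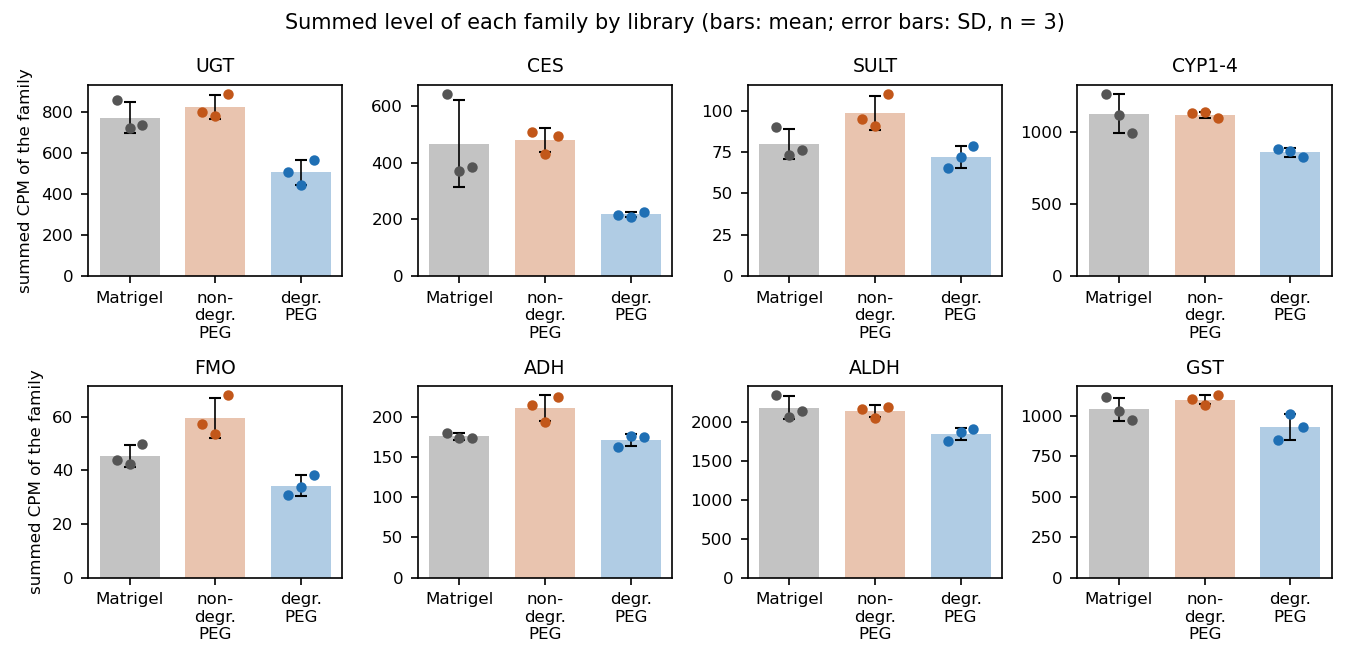
Summed CPM of the members of each family (y axis, from 0) in the 3 matrices; points are libraries, bars the mean and error bars the SD over 3 libraries. The degradable libraries lie below all others for UGT, CES, CYP1-4, FMO and ALDH, and 1 Matrigel library, replicate 1, is the highest of its matrix for CES at 644 CPM.

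UGT enzymes attach glucuronic acid to bilirubin, steroids, bile acids and drugs, and they were the family with the largest share of calls in the degradable gel. Of 8 tested members, 7 fell in the degradable gel against Matrigel (87.5%, against 4.79% of all genes) and 0 rose, with a median log2 difference of -0.65. All 5 members of the Ugt2 group on chromosome 5, which runs from Ugt2b34 (chr5:86889767-86906937) to Ugt2a3 (chr5:87324972-87337195), were among them. Ugt2b34, the most abundant, was at 462, 411 and 424 CPM in Matrigel, 461, 452 and 543 in the non-degradable gel and 277, 240.1 and 331 in the degradable gel. The 3 degradable libraries lay below all 6 others, and the log2 difference from Matrigel was -0.61 ± 0.11 (SE, adjusted p = 0.0054), or 1.53-fold lower. Ugt2b35, chosen after its values were seen, was at 194, 161 and 166 CPM in Matrigel, 164, 164 and 167 in the non-degradable gel and 121, 103 and 123 in the degradable gel, a log2 difference of -0.59 ± 0.088 (SE, adjusted p = 0.00155) between the degradable gel and Matrigel. The less abundant members of the group differed more. Ugt2b36 was at 27.9, 14.9 and 17.2 CPM in Matrigel, 15.5, 11.4 and 14.8 in the non-degradable gel and 6.101, 5.62 and 6.85 in the degradable gel. Ugt2a3 was at 14.3, 7.77 and 8.43 CPM in Matrigel, 6.53, 6.02 and 6.21 in the non-degradable gel and 2.39, 2.18 and 3.15 in the degradable gel. For both genes every degradable library was below every other library, with log2 differences from Matrigel of -1.69 ± 0.22 (SE, adjusted p = 0.000668) and -1.98 ± 0.24 (SE, adjusted p = 0.000458). Ugt2b5 was low, at 4.25, 1.14 and 1.56 CPM in Matrigel, 1.72, 1.19 and 1.12 in the non-degradable gel and 0.263, 0.223 and 0.233 in the degradable gel. Its log2 difference was -3.25 ± 0.52 (SE, adjusted p = 0.00226), or 9.49-fold lower, with Matrigel replicate 1 far above its 2 companions.

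From the Ugt1 locus on chromosome 1, where alternative first exons join shared last exons, 2 of 3 members fell in the degradable gel. Ugt1a1, the bilirubin-conjugating form, was at 52.6, 39.5 and 38.9 CPM in Matrigel, 38.4, 35.6 and 43.8 in the non-degradable gel and 26.2, 24.9 and 29.9 in the degradable gel, again with no overlap between the degradable gel and the rest. The log2 difference from Matrigel was -0.69 ± 0.13 (SE, adjusted p = 0.00488). Ugt1a7c was at 106, 87.8 and 77.2 CPM in Matrigel, 108, 109 and 112 in the non-degradable gel and 76.2, 64.2 and 70.2 in the degradable gel, so that Matrigel lay between the gels. Its log2 difference was -0.36 ± 0.11 (SE, adjusted p = 0.0464) for the degradable gel, a call that was lost without any 1 of 7 of the 9 libraries (adjusted p 0.0539 to 0.165), those being all but Matrigel replicate 3 and degradable PEG replicate 1. No UGT gene passed the test in the non-degradable gel against Matrigel (2 higher and 2 lower at an unadjusted p under 0.05, and 1 higher and 1 lower by DESeq2). Ugt1a7c was higher there without Matrigel replicate 1 (adjusted p = 0.0182), Ugt1a6a without degradable PEG replicate 2 (0.0446), and Ugt2a3 lower without Matrigel replicate 2 (0.0366) or degradable PEG replicate 3 (0.0497). With the replicate block Ugt1a7c (adjusted p = 0.0389) and Ugt1a6a (0.0341) were higher there, and Ugt2b36 (0.0351) and Ugt2a3 (0.0307) lower. UGT enzymes take their glucuronic acid from a donor made by Ugdh, which is described with the partner enzymes.

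CES enzymes hydrolyse esters, amides and many prodrugs. Against Matrigel 6 of 8 fell in the degradable gel (75%, against 4.79% of all genes) and 0 rose, with a median log2 difference of -1.58. The Ces2 group on chromosome 8 holds the main intestinal forms. Ces2a (chr8:104734003-104741634), which gave 48.4% of the family's summed CPM, was at 357, 177 and 169 CPM in Matrigel, 267, 220.2 and 243 in the non-degradable gel and 93.2, 82.2 and 79.6 in the degradable gel. Matrigel replicate 1 stood well above the other Matrigel libraries, and still all 3 degradable libraries were below all 6 others. The log2 difference between the degradable gel and Matrigel was -1.46 ± 0.24 (SE, adjusted p = 0.00241), or 2.76-fold lower, and it passed without each single library. Against Matrigel the non-degradable gel did not pass (log2 difference 0.06, adjusted p = 0.894), but without Matrigel replicate 1 it did, as higher (adjusted p = 0.0128). Ces2e was at 154, 96.5 and 112 CPM in Matrigel, 117, 90.9 and 121 in the non-degradable gel and 50.6, 55.8 and 63.2 in the degradable gel, a log2 difference of -1.10 ± 0.17 (SE, adjusted p = 0.00159) for the degradable gel. Ces2g, named after its values were seen, was at 102, 84.1 and 89.99 CPM in Matrigel, 106, 102 and 114 in the non-degradable gel and 62.6, 64.5 and 76.9 in the degradable gel, with a log2 difference of -0.44 ± 0.096 (SE, adjusted p = 0.0132). That call was lost without Matrigel replicate 1 (adjusted p = 0.0567).

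Ces2c was the one CES gene that rose in the non-degradable gel. Its level was 8.12, 3.54 and 2.97 CPM in Matrigel, 12.2, 8.64 and 11.9 in the non-degradable gel and 5.42, 3.02 and 4.06 in the degradable gel, and the non-degradable libraries lay above all others. The log2 difference from Matrigel was 1.17 ± 0.34 (SE, adjusted p = 0.0366). It was lost without Matrigel replicate 2 (0.12), Matrigel replicate 3 (0.105), non-degradable PEG replicate 1 (0.0994) or replicate 3 (0.107), all adjusted p-values. The Ces1 group, known mainly from liver and blood plasma, was at far lower levels. Of its 4 genes, 2 fell in the non-degradable gel and 3 in the degradable gel, and Ces1g passed in neither. Ces1e was at 15.6, 7.6 and 9.51 CPM in Matrigel, 5.28, 6.07 and 4.699 in the non-degradable gel and 3.21, 3.86 and 2.95 in the degradable gel. Its log2 differences from Matrigel were -1.03 ± 0.24 (SE, adjusted p = 0.0147) in the non-degradable and -1.70 ± 0.25 (SE, adjusted p = 0.0013) in the degradable gel, the first of which was lost without non-degradable PEG replicate 3 (adjusted p = 0.0616). Ces1f was at 5.33, 2.19 and 2.004 CPM in Matrigel, 1.45, 1.37 and 0.917 in the non-degradable gel and 0.579, 0.544 and 0.155 in the degradable gel. It fell in the degradable gel with a log2 difference of -2.88 ± 0.48 (SE, adjusted p = 0.00285). Its log2 difference of -1.34 ± 0.42 (SE, adjusted p = 0.0513) in the non-degradable gel missed the threshold, which it passed with the replicate block (adjusted p = 0.0089) and without Matrigel replicate 3 (0.0408), degradable PEG replicate 1 (0.0446) or replicate 3 (0.0345). Ces1d, named after its values were seen, averaged 0.2496 CPM and fell in both gels, with a log2 difference of -1.42 ± 0.37 (SE, adjusted p = 0.0231) in the non-degradable gel and -2.17 ± 0.41 (SE, adjusted p = 0.0054) in the degradable gel. The first was lost without replicate 1 or 3 of Matrigel or of the non-degradable gel (adjusted p 0.0582 to 0.107).

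SULT enzymes transfer sulfate to phenols, steroids and amines. Of 6 members, 2 fell in the degradable gel against Matrigel (33.3%, against 4.79% of all genes). These were the neighbours Sult1b1 and Sult1d1 on chromosome 5, next to the Ugt2 group. Sult1d1 (chr5:87554645-87569027), which sulfates catecholamines, was at 25.6, 15.6 and 17.8 CPM in Matrigel, 21.1, 20.2 and 22.2 in the non-degradable gel and 9.36, 6.83 and 10.96 in the degradable gel. The degradable libraries lay below all others, with a log2 difference from Matrigel of -1.12 ± 0.19 (SE, adjusted p = 0.00353), or 2.17-fold lower. Sult1b1, chosen after its values were seen, was at 18.3, 10.6 and 12.5 CPM in Matrigel, 14.7, 13.8 and 15.1 in the non-degradable gel and 8.15, 6.803 and 8.12 in the degradable gel, a log2 difference of -0.84 ± 0.18 (SE, adjusted p = 0.0108) for the degradable gel. Sult4a1, a form known from brain, was the most abundant and ran the other way. It was at 24.5, 31.4 and 30.8 CPM in Matrigel, 37.2, 37.6 and 48.8 in the non-degradable gel and 32.6, 39.9 and 42.7 in the degradable gel, with both gels above every Matrigel library. Its log2 difference was 0.51 ± 0.14 (SE, adjusted p = 0.0282) in the non-degradable gel, lost without replicate 1 of Matrigel (adjusted p = 0.103) or non-degradable PEG replicate 3 (0.118). The degradable gel gave 0.41 ± 0.14 (SE, adjusted p = 0.0799), which passed without non-degradable PEG replicate 3 (0.0474) or degradable PEG replicate 1 (0.0275).

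**Figure D3:**
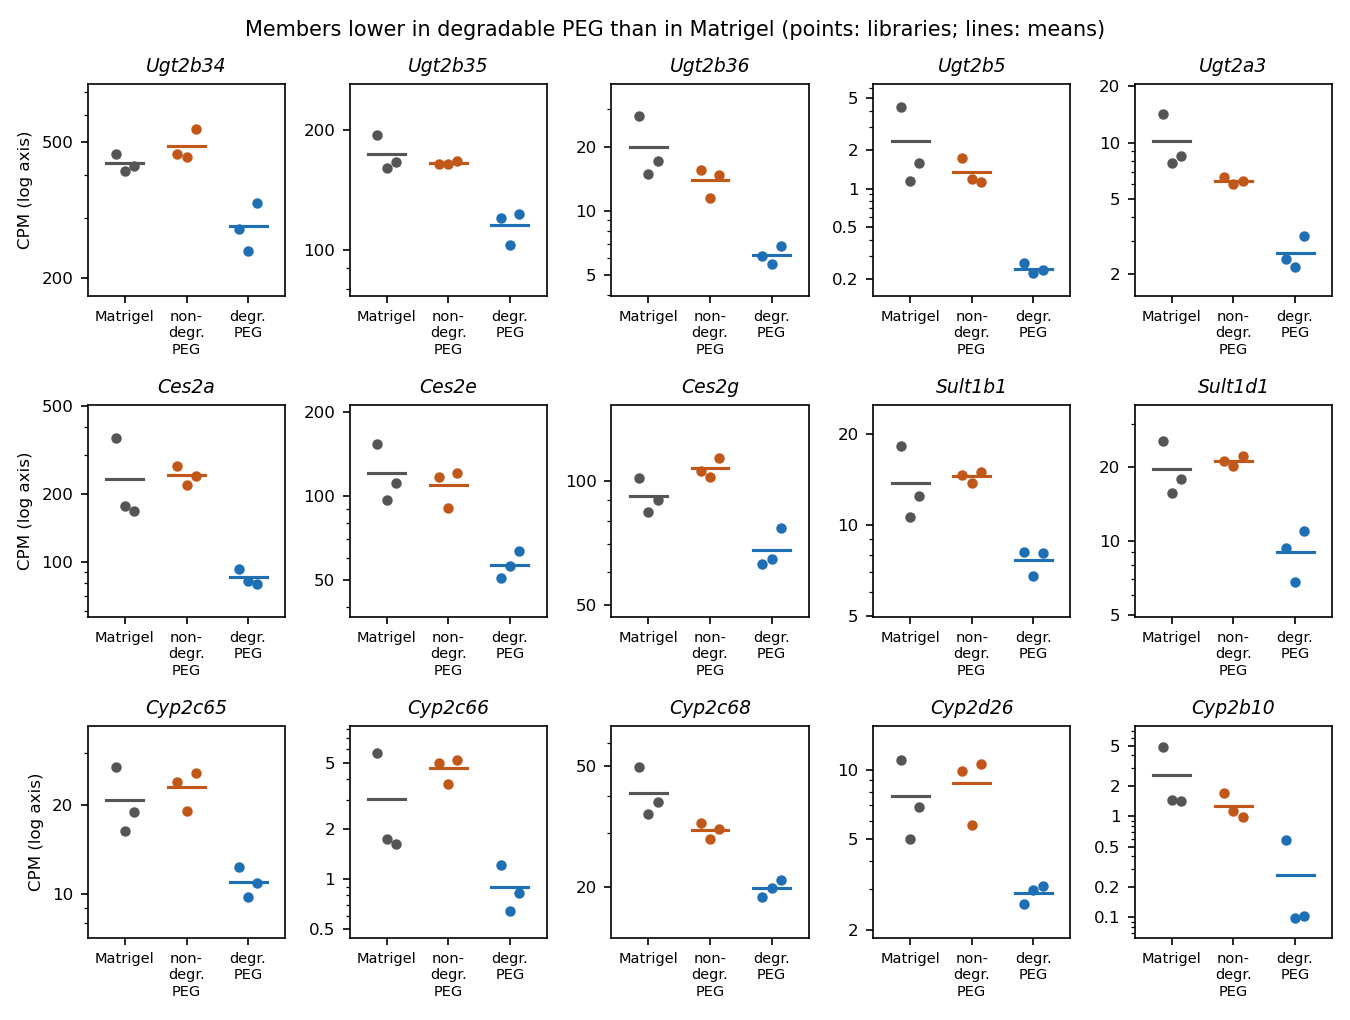
CPM of 15 members that were called lower in the degradable gel than in Matrigel (y axis, log scale, its range differing between panels) in the 3 matrices; points are libraries and lines the means. In every panel the 3 degradable libraries lie below all 3 Matrigel libraries, and in every panel Matrigel replicate 1, the leftmost point, is the highest of its matrix. Choosing members by their call makes such separation likely.

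The P450 family oxidises drugs, steroids, retinoids and fatty acids. Of 32 tested members, 11 fell (34.4%, against 4.79% of all genes) and 1 rose (3.12%, against 7.42%) in the degradable gel against Matrigel (median log2 difference -0.41). In the non-degradable gel 5 fell (15.6%, against 7.13% of all genes) and 4 rose (12.5%, against 9.71%), with a median of 0.13. In the Cyp2c group on chromosome 19, whose members turn over arachidonic acid and drugs, 4 of 6 fell in the degradable gel. Cyp2c55 (chr19:39007019-39042693), the most abundant P450, did not pass the test in any comparison, at 514, 422 and 386 CPM in Matrigel, 494, 465 and 453 in the non-degradable gel and 394, 367 and 345 in the degradable gel (lowest adjusted p = 0.122). Cyp2c65 was at 27.01, 16.4 and 18.96 CPM in Matrigel, 24.04, 19.1 and 25.8 in the non-degradable gel and 12.3, 9.75 and 10.9 in the degradable gel, with the degradable libraries below all others. Its log2 difference from Matrigel was -0.92 ± 0.18 (SE, adjusted p = 0.00738) in the degradable gel and 0.15 ± 0.18 (SE, adjusted p = 0.603) in the non-degradable gel. Cyp2c68 was at 49.7, 34.7 and 38.1 CPM in Matrigel, 32.5, 28.8 and 30.9 in the non-degradable gel and 18.5, 19.7 and 21.04 in the degradable gel, so the 3 matrices did not overlap. The log2 difference from Matrigel was -1.05 ± 0.12 (SE, adjusted p = 0.000398) in the degradable gel. The non-degradable gel gave -0.41 ± 0.12 (SE, adjusted p = 0.0403), a call lost without Matrigel replicate 1 (0.124) or 3 (0.054) or without non-degradable PEG replicate 1 (0.0683), 2 (0.11) or 3 (0.107), as adjusted p-values. Cyp2c66 was at 5.68, 1.73 and 1.63 CPM in Matrigel, 4.97, 3.71 and 5.203 in the non-degradable gel and 1.21, 0.643 and 0.827 in the degradable gel, with Matrigel replicate 1 over 3 times its companions. Its log2 difference of -1.74 ± 0.47 (SE, adjusted p = 0.0339) in the degradable gel was lost without Matrigel replicate 1 (0.0787), degradable PEG replicate 2 (0.113) or replicate 3 (0.0994). Against Matrigel the non-degradable gel, at 0.63 ± 0.42 (SE, adjusted p = 0.324), passed only without Matrigel replicate 1 (0.00619).

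The Cyp3a genes are the main drug-oxidising P450s of gut and liver and textbook PXR targets. Of the 3 beside each other on chromosome 5, Cyp3a11, Cyp3a25 and Cyp3a59, 0 passed against Matrigel in either gel. At an unadjusted p under 0.05, 1 was higher and 1 lower in the non-degradable gel and 1 lower in the degradable gel, and DESeq2 called 1 higher in the first and 1 lower in the second. Cyp3a11, the mouse counterpart of human CYP3A4, was at 12.8, 9.07 and 5.15 CPM in Matrigel, 13.7, 12.3 and 12.7 in the non-degradable gel and 5.58, 4.63 and 5.33 in the degradable gel. The Matrigel libraries spread over the range of both gels. Its log2 difference of -0.80 ± 0.26 (SE, adjusted p = 0.0663) in the degradable gel passed without Matrigel replicate 3 (0.00407), and that of 0.52 ± 0.25 (SE, adjusted p = 0.171) in the non-degradable gel without Matrigel replicate 1 (0.0282). Cyp3a25 was higher in the non-degradable gel without Matrigel replicate 1 (0.0114) and with the replicate block (0.0211). Cyp3a13, elsewhere on the chromosome and known from intestine, was at 23.9, 22.3 and 20.4 CPM in Matrigel, 34.4, 32.01 and 38.97 in the non-degradable gel and 21.1, 24.1 and 27.1 in the degradable gel. The non-degradable libraries lay above all others, and the log2 difference from Matrigel was 0.66 ± 0.11 (SE, adjusted p = 0.00241) in that gel and 0.12 ± 0.11 (SE, adjusted p = 0.539) in the degradable gel.

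Other P450 genes fell in the degradable gel and some in both gels. Cyp2b10, the classic CAR target, was at 4.89, 1.45 and 1.41 CPM in Matrigel, 1.69, 1.12 and 0.986 in the non-degradable gel and 0.579, 0.0989 and 0.103 in the degradable gel. Replicate 1 was the highest library in each matrix. Its log2 difference from Matrigel in the degradable gel was -3.30 ± 0.67 (SE, adjusted p = 0.00857), or 9.85-fold lower, and passed without each single library. That in the non-degradable gel was -1.02 ± 0.55 (SE, adjusted p = 0.221), or an adjusted p of 0.0465 with the replicate block. Cyp2d26 was at 11.1, 4.97 and 6.91 CPM in Matrigel, 9.91, 5.74 and 10.6 in the non-degradable gel and 2.58, 2.97 and 3.102 in the degradable gel, a log2 difference of -1.40 ± 0.30 (SE, adjusted p = 0.0115) for the degradable gel. Cyp2j6, an arachidonic acid epoxygenase abundant in gut, was at 301, 271 and 262 CPM in Matrigel, 207, 223 and 230.2 in the non-degradable gel and 172, 205 and 198 in the degradable gel, with no overlap among the matrices. The log2 difference was -0.53 ± 0.084 (SE, adjusted p = 0.00212) in the degradable gel. The non-degradable gel gave -0.34 ± 0.084 (SE, adjusted p = 0.0203), lost without replicate 1 of Matrigel (0.0806) or non-degradable PEG replicate 1 (0.0786). Cyp4b1, a fatty acid hydroxylase, was at 16.4, 16.99 and 21.7 CPM in Matrigel, 10.1, 7.49 and 13.5 in the non-degradable gel and 6.42, 7.82 and 8.19 in the degradable gel. Both gels lay below Matrigel, with log2 differences of -0.82 ± 0.20 (SE, adjusted p = 0.0163) in the non-degradable gel and -1.30 ± 0.20 (SE, adjusted p = 0.00186) in the degradable gel. The first was lost without replicate 3 of Matrigel (0.0565) or non-degradable PEG replicate 1 (0.051). Cyp2e1, the ethanol-inducible P450, averaged under 1 CPM and was named after its values were seen. It was at 3.38, 1.12 and 2.29 CPM in Matrigel, 0.449, 0.305 and 0.344 in the non-degradable gel and 0.473, 0.297 and 0.207 in the degradable gel, and fell in both gels, with log2 differences of -2.61 ± 0.42 (SE, adjusted p = 0.00201) and -2.78 ± 0.43 (SE, adjusted p = 0.00182). Other P450 genes named after their values were seen were Cyp2c67, which fell in the degradable gel with a log2 difference of -1.69 ± 0.27 (SE, adjusted p = 0.0023), Cyp2w1 with a log2 difference of -1.56 ± 0.32 (SE, adjusted p = 0.00927) and Cyp2j5 with a log2 difference of -1.37 ± 0.28 (SE, adjusted p = 0.00817). Cyp2c67 also fell in the non-degradable gel, with a log2 difference of -1.04 ± 0.25 (SE, adjusted p = 0.0186), lost without Matrigel replicate 1 or any 1 of the non-degradable libraries (adjusted p 0.0509 to 0.0698). Cyp2r1, the vitamin D 25-hydroxylase, rose there by 1.20 ± 0.34 (SE, adjusted p = 0.033), lost without any 1 of Matrigel replicates 1, 2 and 3 and of non-degradable PEG replicates 1 and 2 (0.0826 to 0.104).

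The Cyp1 genes, the textbook targets of AhR, were also looked at because of that role. Cyp1a1 was at 32.1, 48.5 and 20.2 CPM in Matrigel, 19.7, 31.9 and 15.4 in the non-degradable gel and 18.6, 20.6 and 12.9 in the degradable gel. Replicate 2 was the highest and replicate 3 the lowest library in each matrix, and the matrices overlapped. The log2 difference from Matrigel was -0.59 ± 0.32 (SE, adjusted p = 0.222) in the non-degradable gel, which with the replicate block was lower at an adjusted p of 0.00691. In the degradable gel it was -0.95 ± 0.32 (SE, adjusted p = 0.0789), which passed without Matrigel replicate 3 (0.0309). Cyp1b1 was at 119, 153 and 82.8 CPM in Matrigel, 95.9, 153 and 61.8 in the non-degradable gel and 120.5, 90.5 and 66.2 in the degradable gel, and did not pass in any comparison (lowest adjusted p = 0.506). Both genes were named after their values were seen.

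**Figure D4:**
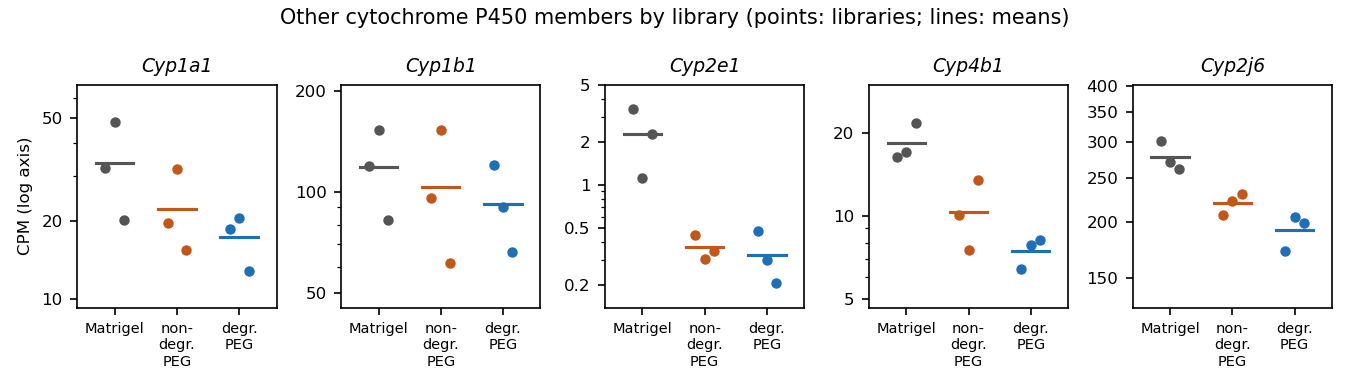
CPM of 5 P450 members (y axis, log scale, its range differing between panels) in the 3 matrices; points are libraries in replicate order and lines the means. Cyp2e1 and Cyp4b1 lie below Matrigel in both gels, Cyp2j6 steps down from Matrigel to the non-degradable and then the degradable gel, and Cyp1a1 and Cyp1b1 overlap among the matrices.

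The largest rises in the non-degradable gel came from Fmo5, Adh6a, Adh1, Cyp2s1 and Gstp3. Fmo5 (chr3:97628804-97655282), a flavin monooxygenase that inserts oxygen into ketones, was at 2.36, 1.79 and 1.39 CPM in Matrigel, 17.3, 12.7 and 23.3 in the non-degradable gel and 4.52, 3.24 and 5.71 in the degradable gel. The 3 matrices did not overlap, and Fmo5 rose in both gels, by log2 differences of 3.27 ± 0.28 (SE, adjusted p = 7.7e-05) in the non-degradable gel, or 9.68-fold, and 1.29 ± 0.28 (SE, adjusted p = 0.0136) in the degradable gel. The second was lost without Matrigel replicate 3 (0.056) or degradable PEG replicate 3 (0.053). Fmo1 (chr1:162829561-162866610), which oxygenates nitrogen and sulfur in drugs, was at 21.4, 21.2 and 24.8 CPM in Matrigel, 18.8, 18.8 and 20.4 in the non-degradable gel and 10.5, 14.03 and 14.3 in the degradable gel, where it fell with a log2 difference of -0.80 ± 0.12 (SE, adjusted p = 0.00184). Fmo4 was at 19.9, 19.3 and 23.6 CPM in Matrigel, 21, 21.9 and 24.1 in the non-degradable gel and 15.7, 16.4 and 18.3 in the degradable gel and did not pass in any comparison (lowest adjusted p = 0.0755).

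The 3 ADH genes lie side by side on chromosome 3 and 2 of them rose in the non-degradable gel. Adh1 (chr3:138260991-138290698), which oxidises ethanol and retinol, was at 7.96, 2.17 and 2.97 CPM in Matrigel, 32.1, 19.1 and 32.98 in the non-degradable gel and 7.97, 5.49 and 7.86 in the degradable gel. The non-degradable libraries lay above all others, with a log2 difference from Matrigel of 2.70 ± 0.40 (SE, adjusted p = 0.00126), or 6.51-fold. That in the degradable gel was 0.72 ± 0.40 (SE, adjusted p = 0.278), which passed without Matrigel replicate 1 (0.0103). Adh6a (chr3:138313286-138331134) was at 2.89, 1.75 and 1.497 CPM in Matrigel, 15.1, 10.2 and 25.01 in the non-degradable gel and 3.497, 1.83 and 3.8 in the degradable gel, a log2 difference of 3.05 ± 0.38 (SE, adjusted p = 0.000431) for the non-degradable gel, or 8.26-fold, and 0.58 ± 0.38 (SE, adjusted p = 0.369) for the degradable gel. Adh5, the formaldehyde-clearing form present in most tissues, was at 169, 169 and 169 CPM in Matrigel, 167, 165 and 167 in the non-degradable gel and 151, 169 and 163 in the degradable gel. It did not pass in any comparison (lowest adjusted p = 0.495), and its log2 difference from Matrigel was -0.02 with an SE of 0.061 in the non-degradable gel.

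Cyp2s1 (chr7:25802475-25816913), a P450 of epithelia that acts on retinoids, was at 7.02, 4.67 and 5.64 CPM in Matrigel, 27.9, 17.1 and 31.7 in the non-degradable gel and 7.97, 9.72 and 14.7 in the degradable gel. The 3 matrices did not overlap. Its log2 difference from Matrigel was 2.15 ± 0.27 (SE, adjusted p = 0.000455) in the non-degradable gel, or 4.44-fold. That in the degradable gel was 0.91 ± 0.27 (SE, adjusted p = 0.0488), a call that did not hold when 1 of 6 libraries was left out, Matrigel replicate 1 (0.0592), 2 (0.145) or 3 (0.121), non-degradable PEG replicate 1 (0.0672) or degradable PEG replicate 2 (0.08) or 3 (0.178). Cyp4f14, which inactivates leukotriene B4, was at 24.4, 14.1 and 16.6 CPM in Matrigel, 41.4, 31.3 and 48.4 in the non-degradable gel and 14.8, 13.4 and 16.8 in the degradable gel. It rose in the non-degradable gel by a log2 difference of 1.14 ± 0.20 (SE, adjusted p = 0.00332), with no overlap, while the degradable gel overlapped Matrigel. The 5 other Cyp4f genes beside it on chromosome 17 did not pass against Matrigel in either gel, except that with the replicate block Cyp4f13 (adjusted p = 0.0383) and Cyp4f40 (0.00775) were higher in the non-degradable gel. Cyp4f40 also passed there without replicate 1 of Matrigel (0.0476) or non-degradable PEG replicate 2 (0.0454).

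**Figure D5:**
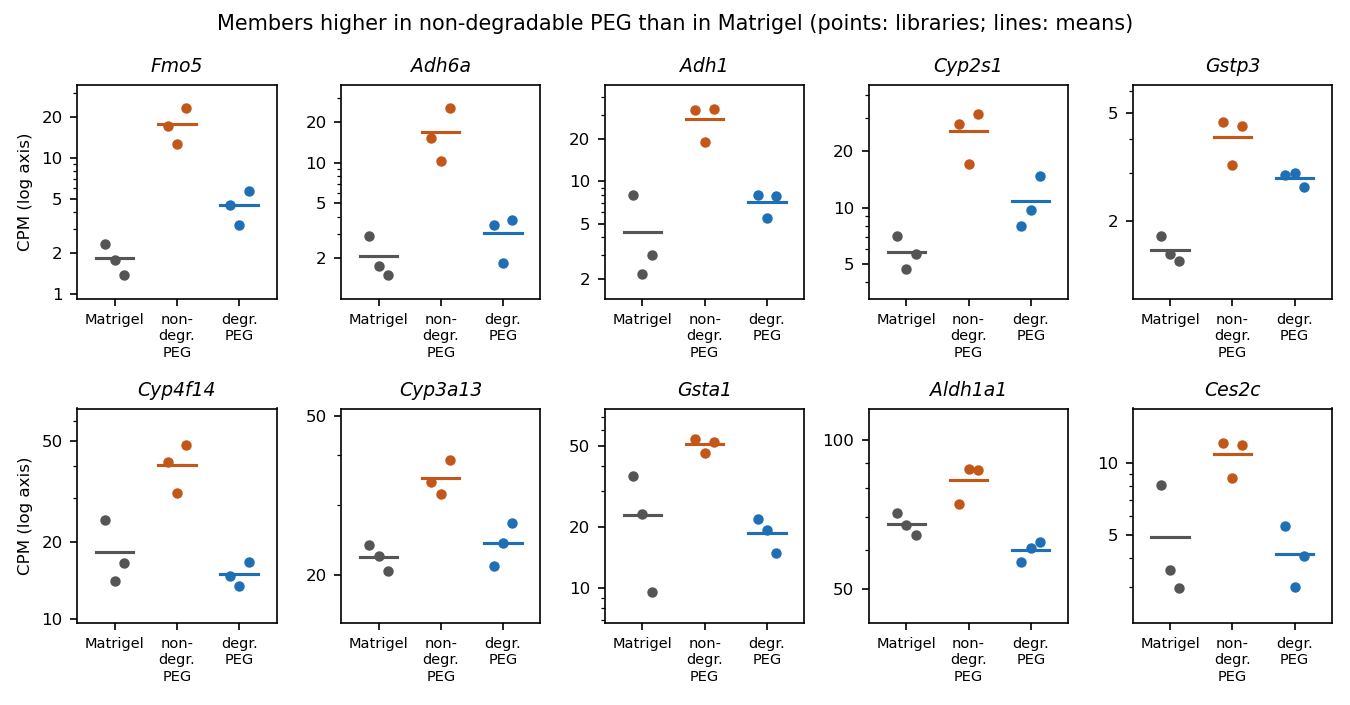
CPM of 10 members that were called higher in the non-degradable gel than in Matrigel (y axis, log scale, its range differing between panels) in the 3 matrices; points are libraries and lines the means. The 3 non-degradable libraries lie above all Matrigel and all degradable libraries in every panel, and Fmo5, Cyp2s1 and Gstp3 are also above Matrigel in the degradable gel. Separation from Matrigel is made likely by choosing members by their call.

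ALDH enzymes oxidise aldehydes from retinoid, amino acid, lipid and ethanol metabolism. Of 17 tested members, 2 fell (11.8%, against 4.79% of all genes) and 0 rose in the degradable gel. In the non-degradable gel 2 rose (11.8%, against 9.71% of all genes) and 1 fell (5.88%, against 7.13%), shares near those of all genes. Aldh1b1 was at 769.8, 581 and 596 CPM in Matrigel, 556, 519 and 489.5 in the non-degradable gel and 417, 434 and 414 in the degradable gel, with no overlap among the matrices. It fell in the degradable gel with a log2 difference of -0.62 ± 0.10 (SE, adjusted p = 0.00264). In the non-degradable gel the log2 difference was -0.32 ± 0.10 (SE, adjusted p = 0.0562), which passed without Matrigel replicate 2 (0.0465) and with the replicate block (0.0262). Aldh1l2, a mitochondrial enzyme of folate metabolism, was named after its values were seen. It was at 31.5, 19.4 and 19 CPM in Matrigel, 26.2, 20.2 and 21.2 in the non-degradable gel and 12.2, 9.599 and 14.9 in the degradable gel, a log2 difference of -0.93 ± 0.21 (SE, adjusted p = 0.0153) for the degradable gel that was lost without degradable PEG replicate 2 (0.0611). Aldh1a1, which makes retinoic acid, was at 71.3, 67.4 and 64.4 CPM in Matrigel, 74.3, 87.4 and 87.3 in the non-degradable gel and 56.7, 60.5 and 62.3 in the degradable gel. Its log2 difference of 0.29 ± 0.080 (SE, adjusted p = 0.0289) in the non-degradable gel was lost without Matrigel replicate 2 (0.083) or 3 (0.102) or non-degradable PEG replicate 2 (0.0894) or 3 (0.118). Aldh3b1 rose in the non-degradable gel by 0.71 ± 0.18 (SE, adjusted p = 0.0227) and Aldh1a3, another retinaldehyde dehydrogenase, fell with a log2 difference of -1.17 ± 0.36 (SE, adjusted p = 0.0449). The first call was lost without any 1 of Matrigel replicates 1, 2 and 3 and of non-degradable PEG replicates 1 and 3 (0.0561 to 0.0965) and the second without any 1 of Matrigel replicates 1, 2 and 3, of non-degradable PEG replicates 1, 2 and 3 and of degradable PEG replicate 3 (0.0562 to 0.151), and both genes were named after their values were seen. Aldh18a1 was at 325, 308 and 353 CPM in Matrigel, 369, 328 and 398 in the non-degradable gel and 303, 324 and 362 in the degradable gel, and did not pass in any comparison (lowest adjusted p = 0.289).

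GST enzymes conjugate electrophiles to glutathione. Of 20 tested members, 5 rose (25%, against 9.71% of all genes) and 1 fell (5%, against 7.13%) in the non-degradable gel. In the degradable gel 1 rose (5%, against 7.42% of all genes) and 3 fell (15%, against 4.79%). Gstp3 rose in both gels. It was at 1.77, 1.52 and 1.43 CPM in Matrigel, 4.597, 3.201 and 4.45 in the non-degradable gel and 2.94, 2.99 and 2.66 in the degradable gel, with log2 differences of 1.38 ± 0.19 (SE, adjusted p = 0.000754) and 0.87 ± 0.19 (SE, adjusted p = 0.0127), the second lost without Matrigel replicate 3 (0.0517). Gsta1 was at 35.8, 23.3 and 9.6 CPM in Matrigel, 54.2, 46.5 and 52.8 in the non-degradable gel and 22.04, 19.3 and 14.9 in the degradable gel. The 3 Matrigel libraries spread widely, and the log2 difference of 1.16 ± 0.34 (SE, adjusted p = 0.0365) in the non-degradable gel was lost without replicate 2 of Matrigel (0.0905) or non-degradable PEG replicate 1 (0.0891), 2 (0.0558) or 3 (0.0927). Gstm1 (chr3:108012255-108017973) fell in both gels. It was at 159.7, 133 and 134 CPM in Matrigel, 120.4, 106 and 112 in the non-degradable gel and 91.5, 113 and 102 in the degradable gel. Its log2 difference was -0.48 ± 0.097 (SE, adjusted p = 0.00883) in the degradable gel, and that of -0.33 ± 0.097 (SE, adjusted p = 0.0374) in the non-degradable gel was lost without any 1 of the 6 libraries compared (adjusted p 0.0508 to 0.138). Gsta4 was at 194, 199.7 and 172 CPM in Matrigel, 221, 215 and 238 in the non-degradable gel and 150.4, 193 and 174 in the degradable gel and passed only against Matrigel in the non-degradable gel without degradable PEG replicate 1 (0.0477). Gsto1 was at 274, 237 and 228 CPM in Matrigel, 232, 232 and 228 in the non-degradable gel and 199, 214 and 206 in the degradable gel. Its log2 difference of -0.25 ± 0.075 (SE, adjusted p = 0.0497) in the degradable gel was lost without any 1 of the 9 libraries (adjusted p 0.0517 to 0.192). The remaining called members were named after their values were seen. Gstm3 fell in the degradable gel with a log2 difference of -0.91 ± 0.20 (SE, adjusted p = 0.0143). Gstt3 rose in the non-degradable gel by 0.45 ± 0.12 (SE, adjusted p = 0.0215), Gstt2 by 0.34 ± 0.088 (SE, adjusted p = 0.023) and Gstm4 by 0.46 ± 0.13 (SE, adjusted p = 0.0335), and these calls depended on single libraries. Gstt3 was lost without any 1 of Matrigel replicates 1 and 3 and of non-degradable PEG replicate 3 (0.0542 to 0.0922), Gstt2 without any 1 of Matrigel replicates 2 and 3 and of non-degradable PEG replicates 1, 2 and 3 (0.0573 to 0.0899), and Gstm4 without any 1 of Matrigel replicates 1, 2 and 3 and of non-degradable PEG replicates 1 and 3 (0.0781 to 0.147).

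Between the 2 PEG gels every called member was higher in the non-degradable gel: 10 of 32 CYP, 5 of 8 UGT, 3 of 8 CES, 2 of 6 SULT, 2 of 3 ADH, 2 of 3 FMO and 1 of 17 ALDH genes. No GST gene passed (7 higher and 0 lower at an unadjusted p under 0.05, 3 higher by DESeq2). The lowest adjusted p belonged to Fmo5, with a log2 difference of 1.98 ± 0.26 (SE, adjusted p = 0.0111). Larger differences were those of Adh6a at 2.47 ± 0.36 (SE, adjusted p = 0.0145) and Cyp2c66 at 2.37 ± 0.47 (SE, adjusted p = 0.0366). The abundant members that differed were Ugt2b34 at 0.78 ± 0.11 (SE, adjusted p = 0.0145), Ces2a at 1.52 ± 0.24 (SE, adjusted p = 0.0159), Ces2e at 0.96 ± 0.17 (SE, adjusted p = 0.0234) and Cyp4f14 at 1.43 ± 0.20 (SE, adjusted p = 0.0133). For each of these 7 genes the libraries of the gels did not overlap, which choosing called genes makes likely and which adds no support. All 7 calls were lost without degradable PEG replicate 2, with adjusted p-values of 0.0596 for Fmo5, 0.0783 for Adh6a, 0.185 for Cyp2c66, 0.0596 for Ugt2b34, 0.0966 for Ces2a, 0.117 for Ces2e and 0.0805 for Cyp4f14. Without non-degradable PEG replicate 1, Cyp2c66 (0.126), Ces2a (0.0758), Ces2e (0.1) and Cyp4f14 (0.0534) were also lost, and Cyp2c66 and Ces2e had further losses without other libraries of the gels.

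Log2 differences between the gels were 1.32 ± 0.26 (SE, adjusted p = 0.0352) for Cyp3a11, 1.22 ± 0.20 (SE, adjusted p = 0.0174) for Sult1d1, 1.17 ± 0.22 (SE, adjusted p = 0.0315) for Ugt2b36 and 1.28 ± 0.24 (SE, adjusted p = 0.0303) for Ugt2a3. With 1 library left out, the adjusted p was 0.171 for Cyp3a11, 0.0827 for Sult1d1, 0.157 for Ugt2b36 and 0.152 for Ugt2a3 without degradable PEG replicate 2, and 0.131, 0.0758, 0.129 and 0.116 in the same order without non-degradable PEG replicate 1. All but Sult1d1 were also lost without at least 3 more libraries. The other called members, all named above or here after their values were seen, had log2 differences between the gels of 1.98 for Adh1, 1.60 for Cyp2d26, 1.24 for Cyp2s1, 1.11 for Cyp3a25, 1.07 for Cyp2c65, 0.96 for Cyp4f40, 0.92 for Sult1b1, 0.66 for Ces2g, 0.65 for Ugt1a7c, 0.64 for Cyp2c68, 0.58 for Fmo1, 0.54 for Cyp3a13, 0.52 for Ugt2b35 and 0.47 for Aldh1a1, and each was lost without degradable PEG replicate 2. Gstp3 at 0.51 ± 0.18 (SE, adjusted p = 0.235) and Cyp2e1 at 0.17 ± 0.51 (SE, adjusted p = 0.904), which differed from Matrigel in the same direction in both gels, did not pass between the gels.

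Among 17 tested regulators of these enzymes, 5 rose and 1 fell in the non-degradable gel against Matrigel (29.4% and 5.88%, against 9.71% and 7.13% of all genes). In the degradable gel 5 rose and 2 fell (29.4% and 11.8%, against 7.42% and 4.79% of all genes). The PXR gene Nr1i2 was at 67.96, 65.8 and 63.5 CPM in Matrigel, 67.1, 64.2 and 64.4 in the non-degradable gel and 63.5, 70.7 and 64.1 in the degradable gel, and neither it nor Ahr passed (log2 differences for Ahr of 0.01 and -0.06). Rxra, the shared partner of PXR and CAR, fell in both gels, with log2 differences of -0.47 ± 0.085 (SE, adjusted p = 0.00408) in the non-degradable and -0.63 ± 0.085 (SE, adjusted p = 0.000876) in the degradable gel. Nfe2l2, which encodes NRF2, rose in both, by 0.47 ± 0.069 (SE, adjusted p = 0.00122) and 0.42 ± 0.069 (SE, adjusted p = 0.00253). Cebpa, a transcription factor known from liver, rose by 0.68 ± 0.11 (SE, adjusted p = 0.00229) and 0.58 ± 0.11 (SE, adjusted p = 0.0063). The CAR gene Nr1i3 was under 1 CPM, at 0.563, 0.274 and 0.286 CPM in Matrigel, 0.713, 0.6605 and 0.596 in the non-degradable gel and 0.158, 0.124 and 0.129 in the degradable gel. It was higher in the non-degradable than in the degradable gel by a log2 difference of 2.24 ± 0.37 (SE, adjusted p = 0.0189), lost without non-degradable PEG replicate 1 (0.0837) or degradable PEG replicate 2 (0.103) or 3 (0.0509). Against Matrigel it fell in the degradable gel with a log2 difference of -1.41 ± 0.39 (SE, adjusted p = 0.038), lost without any 1 of 7 libraries (adjusted p 0.0512 to 0.149), all but Matrigel replicate 2 and non-degradable PEG replicate 3.

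Of 14 tested PXR and CAR targets, 11 of the 15 listed being members, 4 rose (28.6%) and 1 fell (7.14%) in the non-degradable gel. In the degradable gel 0 rose and 5 fell (35.7%), and 6 were higher (42.9%) in the non-degradable than in the degradable gel. Of all tested genes, 9.71% rose and 7.13% fell in the first comparison, 7.42% and 4.79% in the second, and 0.814% were higher in the third. Of 6 tested AhR targets, 1 rose in the non-degradable gel (16.7%) and 2 rose in the degradable gel (33.3%), none of them members. Ahrr, the AhR repressor, was at 0.589, 0.632 and 0.573 CPM in Matrigel, 1.22, 1.14 and 0.871 in the non-degradable gel and 1.52, 1.09 and 1.22 in the degradable gel. It rose in the degradable gel by 1.09 ± 0.23 (SE, adjusted p = 0.0107), and in the non-degradable gel by 0.84 ± 0.23 (SE, adjusted p = 0.031), lost without any 1 of Matrigel replicates 1, 2 and 3 and of non-degradable PEG replicates 1 and 2 (0.0735 to 0.105). Tiparp rose in the degradable gel by 0.54 ± 0.15 (SE, adjusted p = 0.0384), lost without any 1 of Matrigel replicates 1, 2 and 3 and of degradable PEG replicate 3 (0.074 to 0.138). Of 19 tested NRF2 targets, 5 rose (26.3%) and 1 fell (5.26%) in the non-degradable gel. In the degradable gel 4 rose (21.1%) and 2 fell (10.5%). The 4 that rose in both gels were not members: Srxn1 of peroxiredoxin repair, the haem oxygenase gene Hmox1, the exporter gene Abcc1 and Me1. Their log2 differences in the non-degradable and the degradable gel were 0.51 ± 0.069 (SE, adjusted p = 0.00077) and 0.46 ± 0.069 (SE, adjusted p = 0.00156) for Srxn1, 0.88 ± 0.15 (SE, adjusted p = 0.00326) and 0.88 ± 0.15 (SE, adjusted p = 0.0037) for Hmox1, 0.47 ± 0.076 (SE, adjusted p = 0.0021) and 0.45 ± 0.076 (SE, adjusted p = 0.00297) for Abcc1, and 0.61 ± 0.098 (SE, adjusted p = 0.00203) and 0.47 ± 0.098 (SE, adjusted p = 0.0103) for Me1. The NRF2 targets that fell were the members Gstm1 in both gels and Gstm3 in the degradable gel.

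Partner enzymes outside the 8 families were measured alongside. Of 41 tested, 7 rose (17.1%, against 9.71% of all genes) and 3 fell (7.32%, against 7.13%) in the non-degradable gel. In the degradable gel 3 rose (7.32%, against 7.42% of all genes) and 9 fell (22%, against 4.79%). Between the gels 4 were higher in the non-degradable gel (9.76%, against 0.814% of all genes). The 3 falls in the first gel and the 3 rises in the second are thus near the shares of all genes. Among the 9 falls in the degradable gel were Cyb5a, Akr1c12, Akr1c13, Papss1 and Maob, named after their values were seen. Each of these calls was lost without Matrigel replicate 1 (adjusted p 0.0595 to 0.111). Por, the reductase that feeds electrons to P450 enzymes, was at 131, 124 and 140.4 CPM in Matrigel, 229, 198 and 271 in the non-degradable gel and 157, 190.3 and 203 in the degradable gel. It rose by 0.82 ± 0.12 (SE, adjusted p = 0.00127) in the non-degradable gel. In the degradable gel, where 11 P450 members fell, Por rose by 0.48 ± 0.12 (SE, adjusted p = 0.0264), lost without Matrigel replicate 1 (0.0774) or 2 (0.0823) or degradable PEG replicate 2 (0.0714) or 3 (0.0991). Akr1b8, an aldose reductase, rose in both gels, by 1.02 ± 0.10 (SE, adjusted p = 0.000168) and 0.83 ± 0.10 (SE, adjusted p = 0.000519), and the microsomal transferase gene Mgst1 fell in both, with a log2 difference of -0.56 ± 0.083 (SE, adjusted p = 0.00129) and -0.69 ± 0.083 (SE, adjusted p = 0.000476). Akr1c19 fell in the degradable gel with a log2 difference of -1.09 ± 0.11 (SE, adjusted p = 0.000222), as did Akr1c14 with a log2 difference of -1.28 ± 0.12 (SE, adjusted p = 0.000161) and the monoamine oxidase gene Maoa with a log2 difference of -0.65 ± 0.073 (SE, adjusted p = 0.000297). Smaller falls in the non-degradable gel were called for Akr1c14, with a log2 difference of -0.42 ± 0.12 (SE, adjusted p = 0.0386), and Maoa, with one of -0.26 ± 0.073 (SE, adjusted p = 0.0323). The first was lost without any 1 of Matrigel replicates 1 and 3 and of non-degradable PEG replicates 1 and 2 (0.107 to 0.121) and the second without any 1 of Matrigel replicates 1 and 3 and of non-degradable PEG replicates 1, 2 and 3 (0.0621 to 0.119). Between the gels Akr1c19, Akr1c14 and Maoa were higher in the non-degradable gel, with log2 differences of 1.01 ± 0.12 (SE, adjusted p = 0.00994), 0.86 ± 0.12 (SE, adjusted p = 0.0136) and 0.39 ± 0.073 (SE, adjusted p = 0.0312). Akr1c14 was lost there without degradable PEG replicate 2 (0.0783) and Maoa without any 1 of Matrigel replicate 3, of non-degradable PEG replicates 1, 2 and 3 and of degradable PEG replicates 1 and 2 (0.0601 to 0.116). Ugdh, which makes the UGT donor and was named after its values were seen, rose in the non-degradable gel by 0.46 ± 0.080 (SE, adjusted p = 0.00306). It was also called higher in the non-degradable than in the degradable gel, which was lost without any 1 of the 9 libraries (adjusted p 0.0595 to 0.151). Among 11 tested efflux transporters, 3 rose in the non-degradable gel (27.3%, against 9.71% of all genes), Abcc1, Abcc3 and Abcc10. The shares in the degradable gel were 9.09% higher and 9.09% lower, against 7.42% and 4.79% of all genes. In the degradable gel Abcc1 rose and Abcg2 fell, with a log2 difference of -0.36 ± 0.091 (SE, adjusted p = 0.0258), lost without any 1 of Matrigel replicates 1 and 3 and of degradable PEG replicates 2 and 3 (0.0692 to 0.103). Abcb1a, the P-glycoprotein gene, did not pass in any comparison. Of 10 tested uptake transporters, 1 rose and 1 fell in each gel (10% each way). Of all genes, 9.71% rose and 7.13% fell in the non-degradable gel, and 7.42% and 4.79% in the degradable gel. The rise of Slc22a18 in the non-degradable gel was lost without Matrigel replicate 1 or 2 or non-degradable PEG replicate 1 or 3 (adjusted p 0.0763 to 0.126). That of Slco4a1 in the degradable gel was lost without Matrigel replicate 1 or degradable PEG replicate 2 or 3 (0.0614 to 0.0706). Slc22a3, an organic cation carrier, fell in both, with log2 differences of -0.83 ± 0.17 (SE, adjusted p = 0.00721) and -1.40 ± 0.17 (SE, adjusted p = 0.000526).

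Markers of absorptive enterocytes were read beside these enzymes. Of 13 tested, 4 rose (30.8%, against 9.71% of all genes) and 2 fell (15.4%, against 7.13%) in the non-degradable gel. In the degradable gel 0 rose and 5 fell (38.5%, against 4.79% of all genes), and 5 were higher (38.5%, against 0.814%) in the non-degradable than in the degradable gel. All 5 calls between the gels were lost without degradable PEG replicate 2 (adjusted p 0.0827 to 0.117) or non-degradable PEG replicate 1 (0.0594 to 0.0829). The summed level of the 13 markers, given above, overlapped between Matrigel and the degradable gel and was higher in every non-degradable library. Sis, the sucrase-isomaltase gene, was at 51.2, 28.5 and 24.2 CPM in Matrigel, 38.8, 23.6 and 48.7 in the non-degradable gel and 10.02, 4.03 and 6.85 in the degradable gel, a log2 difference of -2.31 ± 0.37 (SE, adjusted p = 0.0023) for the degradable gel. Fabp1 of fatty acid binding was at 28.6, 9.03 and 12.2 CPM in Matrigel, 36.6, 21.01 and 40.5 in the non-degradable gel and 6.44, 2.79 and 4.37 in the degradable gel, a log2 difference of -1.87 ± 0.44 (SE, adjusted p = 0.0175) that was lost without Matrigel replicate 1 (0.0515) or degradable PEG replicate 2 (0.0728) or 3 (0.0585). Each of the 13 markers had counts. For Sis and Fabp1 the degradable libraries were below all others, and Matrigel replicate 1 was the highest Matrigel library. In the degradable gel, however, 8 of the 13 markers did not pass, and 2 of the 13 had a positive log2 difference. In the non-degradable gel Alpi and Slc2a2 rose and Fabp2 fell. Each of these calls was lost without non-degradable PEG replicate 1 or 3 (adjusted p 0.052 to 0.129). Leaving out Matrigel replicate 2 or 3 also removed the calls of Alpi and Slc2a2 (0.0586 to 0.0859). Fabp2 further failed when Matrigel replicate 1 (0.112) or the second non-degradable library (0.104) was dropped. The remaining calls among the 4 rises and 2 falls held whichever single library was left out. Against Matrigel, 7 of 9 Paneth markers fell in each gel, and none rose in the non-degradable gel. In the degradable gel Mmp7 rose by a log2 difference of 0.79 ± 0.21 (SE, adjusted p = 0.0311), lost without any 1 of Matrigel replicates 2 and 3 and of degradable PEG replicate 1 (0.0693 to 0.108). Of 7 goblet markers, 3 fell in the non-degradable and 4 in the degradable gel, and the others did not pass. The part of the Paneth and goblet markers in the members' differences was not tested either.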

How the data were processed

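The authors deposited read counts per gene for 9 libraries, 3 per matrix. Per the labels' protocols, total RNA came from the RNeasy Micro kit and entered Illumina's stranded TruSeq mRNA preparation. Per the submitters' processing notes, the tools were cutadapt 1.3, STAR 2.4.2a and HTSeq 0.6.1 on GRCm38. Neither the annotation nor the strand setting is stated in those notes, which leaves genes overlapping on opposite strands uncertain. Reads tallied as ambiguous between genes (1.09% to 1.16%) are outside the gene counts.

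The 5 tally rows were removed. Symbols and exons came from GENCODE M21, which matched 46005 of 46517 genes. After filterByExpr (14870 genes kept) and TMM scaling (trimmed mean of M values), each contrast came from a single edgeR 4.0.16 quasi-likelihood model of the 9 libraries with matrix as the factor. P-values were adjusted by Benjamini-Hochberg over all tested genes, with 0.05 as threshold. Standard errors were derived from the log2 fold change and its F statistic (6 residual degrees of freedom). Levels per kilobase use exon not shared with another gene on the same strand. R 4.3.3, DESeq2 1.42.0 and Python 3.11.15 were used, and the fit was tested on simulated data. Promoter sequences are from RefSeq, GRCm38.p6.

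The members, gene lists and tests were chosen with earlier results of these data known. Genes were named by rule: per comparison, up to 8 called members with the largest fold change in each direction and a mean of at least 1 CPM, the 2 most abundant members per family by level per kilobase, and up to 3 called genes per list. Other genes are said to be chosen after their values were seen, as were the uncalled Nr1i2, Ahr, Hnf4a and Abcb1a, the hepatocyte and Paneth markers beyond the rule and the genes gained only under the block.

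Replicate numbers in the labels were checked for pairing by the correlation of same-numbered libraries' deviations from their matrix means. For the non-degradable gel and Matrigel these were 0.331, 0.176 and 0.186, all over 0.1, so the blocked values are given beside that comparison. For the degradable gel and Matrigel they were 0.258, 0.0712 and 0.226, and between the gels 0.288, 0.0197 and 0.511. Different-numbered libraries gave -0.257 to 0.0386, -0.238 to 0.0392 and -0.454 to 0.257 in the same order of comparisons. The sources do not say what a number stands for.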

Additional observations from a re-analysis of the deposited data

How the results depend on the processing

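Each count was recomputed under 16 alternatives: 2 other scalings, no filter, a filter of 1 CPM, DESeq2, the replicate number as a block, only the compared groups, and each library left out. In the non-degradable gel against Matrigel, the 16 higher and 9 lower members became 25 and 15 with the replicate block, and the 2504 genes called in all became 3877. In the degradable gel the 3 higher members became 5 with the block and 5 with DESeq2, and the 32 lower members 41 and 37. The 1815 genes called in all became 2783 with the block. Between the gels the 25 higher members became 42 with no filter, 41 with the block and 38 with DESeq2, and the 190 genes called in all became 521, 542 and 511. With 1 library left out the members ranged from 8 to 19 higher and 2 to 10 lower in the non-degradable gel, 0 to 7 higher and 28 to 33 lower in the degradable gel, and 0 to 32 higher between the gels. All genes called ranged from 1189 to 3247, 1086 to 2395 and 19 to 242 in the same order. The other scalings, the filter of 1 CPM and the fits of the compared groups only kept each of these counts within 1.5 times its value.

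By the limit of 0.1 the numbers were not taken to pair the degradable libraries with the others, since 1 same-numbered correlation of 3 was under it in each of these comparisons. Against Matrigel, however, every same-numbered correlation exceeded every different-numbered one, so pairing is undecided there. A call gained under the block is read in both comparisons only as a hint. No called value of a named member reversed its direction under these alternatives. Across the scalings the median log2 difference of all genes lay between -0.022 and 0.025. With 3 libraries per matrix and a median SE of 0.112, differences of about that size were not detectable, and members under 1 CPM rest on few counts.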
